A study of Setaria viridis with 15 samples.

Results

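The 117 genes described here are the class III peroxidases of Setaria viridis, a small C4 grass, in shoots that shared the air of a sealed plate with 1 of 3 bacterial isolates. They were taken from the 23214 genes of the authors' deposited comparison of AI2.2-A with control, where 28032 genes were counted. Why the other genes are absent there was not examined. The deposited description had to begin with peroxidase, probable peroxidase or cationic peroxidase. No measured value entered that rule, though the family was chosen with earlier results of these data known. Of the 117, 10 were described as cationic and the rest fell under numbered or lettered names. All seedlings were labelled wild type, were 5 days old when moved as pairs (2 per plate) to the culture system, and were kept for 7 days under a 12 h photoperiod. A small inner dish of LB medium held 20 µL of a suspension of isolate AI2.2-A (4 libraries), CTB P6B8 (3 libraries) or MTS P5D6 (4 libraries), or, in the mock control (4 libraries), no inoculum. The labels name the isolates only by these codes and mark the libraries as biological replicates, so the p-values rest on the spread among libraries so labelled. The series asks how shoot transcripts respond to bacterial volatile compounds and plans every pairwise comparison of the 4 treatments.

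Class III peroxidases are secreted plant enzymes that carry heme and use hydrogen peroxide to oxidize phenolic compounds. In the cell wall they turn monolignols into the radicals that couple into lignin, and they cross-link wall proteins and ferulate side chains, which are abundant in grass walls. They can also make reactive oxygen in the wall space, and in grasses they form large families, often in tandem runs of similar genes. The descriptions of the members carry the number or letter of a similar named protein, from Arabidopsis thaliana, horseradish, turnip, sorghum and other species, and do not by themselves set orthology. The 117 members fell under 38 such names: 21 were described as peroxidase 2, 13 as peroxidase 1, 11 as peroxidase 5, 9 as peroxidase P7, 6 each as peroxidase A2 and cationic peroxidase SPC4, 5 as peroxidase 72, and 4 each as peroxidase 51 and peroxidase 70. The other names held 3 members or fewer.

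Levels are CPM, counts scaled to a common library size, after TMM scaling. Library totals ran from 18222557 to 23919167 counts beside AI2.2-A, 17118899 to 25123025 beside CTB P6B8, 16755755 to 19453085 beside MTS P5D6 and 13852517 to 20556455 in controls. No transcript length was at hand, so where members are ordered or summed by CPM, the order is one of counts and not of levels per length. The labelled tissue was checked against 27 green-tissue marker genes (light-harvesting, Rubisco small subunit and C4 cycle genes), none of which was at 0 in any group. Their summed level was 33608 to 40781 CPM beside AI2.2-A, 31615 to 36107 CPM beside CTB P6B8 and 30711 to 35188 CPM beside MTS P5D6, against 49840 to 56904 CPM in control shoots. Most of that sum came from the C4 cycle genes LOC117850669, LOC117854270 and LOC117857444, named after their values were seen. In that order they averaged 23295, 8793 and 8215 CPM in controls and 14305, 6412 and 4598 CPM beside AI2.2-A. They averaged 13442, 6025 and 4430 CPM beside CTB P6B8 and 14317, 5830 and 3456 CPM beside MTS P5D6. Of 26 markers tested, 4 rose (15.4%) and 8 fell (30.8%) beside AI2.2-A, where 23.4% of all genes tested rose and 24.3% fell. Beside CTB P6B8, 4 rose (15.4%) and 11 fell (42.3%), where 22.6% of all genes rose and 22.7% fell. Beside MTS P5D6, 4 rose (15.4%) and 17 fell (65.4%), where 23.9% of all genes rose and 28.3% fell. A list of 11 root markers summed to 17.8 to 25.7 CPM beside AI2.2-A, 13.5 to 16.7 CPM beside CTB P6B8 and 8.66 to 10.8 CPM beside MTS P5D6, against 13.7 to 16.3 CPM in controls, where 1 of the 11 was at 0. Much of that sum came from aquaporin NIP2-2 and yellow stripe 1, named after their values were seen. In that order they averaged 11.6 and 4.57 CPM beside AI2.2-A and 8.02 and 3.22 CPM beside CTB P6B8. They averaged 3.40 and 4.25 CPM beside MTS P5D6 and 7.94 and 1.56 CPM in controls. The list was set by description, and whether its genes are confined to roots in this grass was not tested. The part of these marker differences in the peroxidase values was not tested, and in bulk samples fewer cells of a type and less RNA per cell cannot be told apart.

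Peroxidase transcripts took a larger share of the shoot libraries beside every isolate than in the mock control: 0.408% to 0.472% of counts beside AI2.2-A, 0.364% to 0.463% beside CTB P6B8 and 0.307% to 0.454% beside MTS P5D6, against 0.195% to 0.216% in controls. The 117 members summed to 4503, 3811, 4027 and 4176 CPM in the AI2.2-A libraries. They summed to 3574, 4564 and 3529 CPM beside CTB P6B8 and to 4680.2, 3133, 3548 and 3901 CPM beside MTS P5D6. The 4 control libraries stood at 2108, 2244, 2245 and 2075 CPM, so no isolate library overlapped the controls. The means were 4129 ± 291 CPM beside AI2.2-A (SD, n = 4), 3889 ± 585 CPM beside CTB P6B8 (SD, n = 3) and 3815 ± 656 CPM beside MTS P5D6 (SD, n = 4), against 2168 ± 89.4 CPM in controls (SD, n = 4). A few genes gave most of these counts. The 5 members with the most counts in each library held 65.9% to 71.2% of it beside AI2.2-A, 67.1% to 72.4% beside CTB P6B8 and 71.7% to 77.3% beside MTS P5D6, against 56.6% to 57.9% in controls. Without the gene with the most counts in each library the sums were 2892 to 3214 CPM beside AI2.2-A, 2758 to 2955 CPM beside CTB P6B8 and 2415 to 3334 CPM beside MTS P5D6, against 1718 to 1894 CPM in controls. The number of members at 10 CPM or more was 27 to 34 beside AI2.2-A, 27 to 28 beside CTB P6B8 and 21 to 23 beside MTS P5D6, against 23 to 26 in controls. Beside MTS P5D6 the summed level was above every control while no library had more members at 10 CPM than the lowest control.

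**Figure D1:**
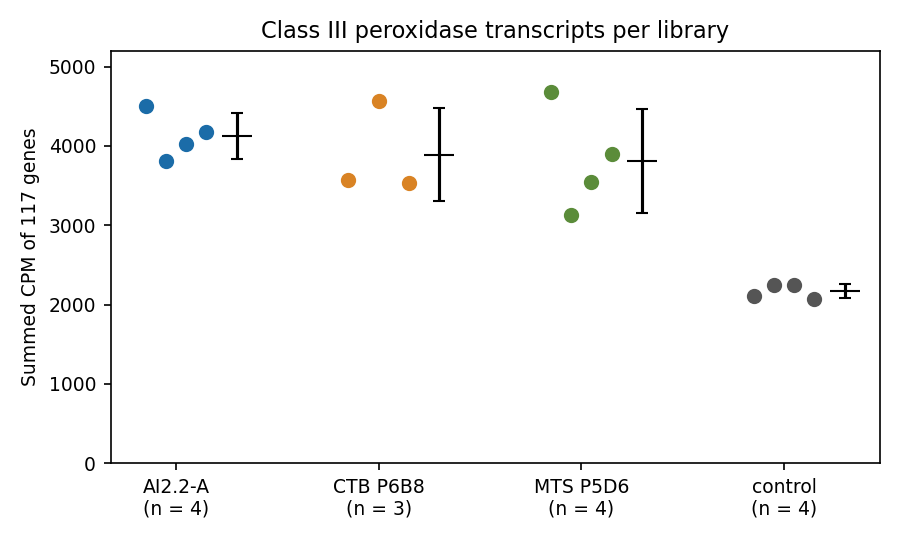
Summed CPM of the 117 class III peroxidase genes (vertical axis, from 0) in each library, by treatment (horizontal axis). Points are libraries, and the bar beside them is the mean with its SD. The 11 isolate libraries lie between 3133 and 4680.2 CPM, above the 4 controls at 2075 to 2245 CPM.

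Single genes were tested with edgeR's quasi-likelihood test over all 20310 genes that passed its filter on low counts, and calls needed an adjusted p (Benjamini-Hochberg) under 0.05. Of the 117 members, 87 passed that filter and 30 did not. The 3 comparisons with the mock control share the same 4 control libraries, so their values are given side by side. Beside AI2.2-A, 42 of the 87 tested members rose (48.3%) and 8 fell (9.2%), where 23.4% of all genes tested rose and 24.3% fell. Beside CTB P6B8, 35 rose (40.2%) and 9 fell (10.3%), where 22.6% of all genes rose and 22.7% fell. Beside MTS P5D6, 20 rose (23.0%) and 30 fell (34.5%), where 23.9% of all genes rose and 28.3% fell. The share of members that rose was about that of all genes beside MTS P5D6 and larger with the other isolates, and the share that fell was smaller beside AI2.2-A and CTB P6B8. The median log2 fold change of the tested members was 0.50 beside AI2.2-A, 0.30 beside CTB P6B8 and -0.26 beside MTS P5D6, each over control, beside medians of -0.00473, 0.00251 and -0.0513 over all genes. Changes of at least 2-fold were called upward in 28 members beside AI2.2-A (32.2%, against 8.08% of all tested genes), 22 beside CTB P6B8 (25.3%, against 8.56%) and 12 beside MTS P5D6 (13.8%, against 8.42%). Downward they were called in 3 members beside AI2.2-A (3.45%, against 2.47% of all tested genes), 7 beside CTB P6B8 (8.05%, against 2.3%) and 18 beside MTS P5D6 (20.7%, against 5.4%). In the authors' deposited table, the same 117 genes split into 41 higher and 8 lower beside AI2.2-A, 35 and 10 beside CTB P6B8 and 20 and 29 beside MTS P5D6.

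**Figure D2:**
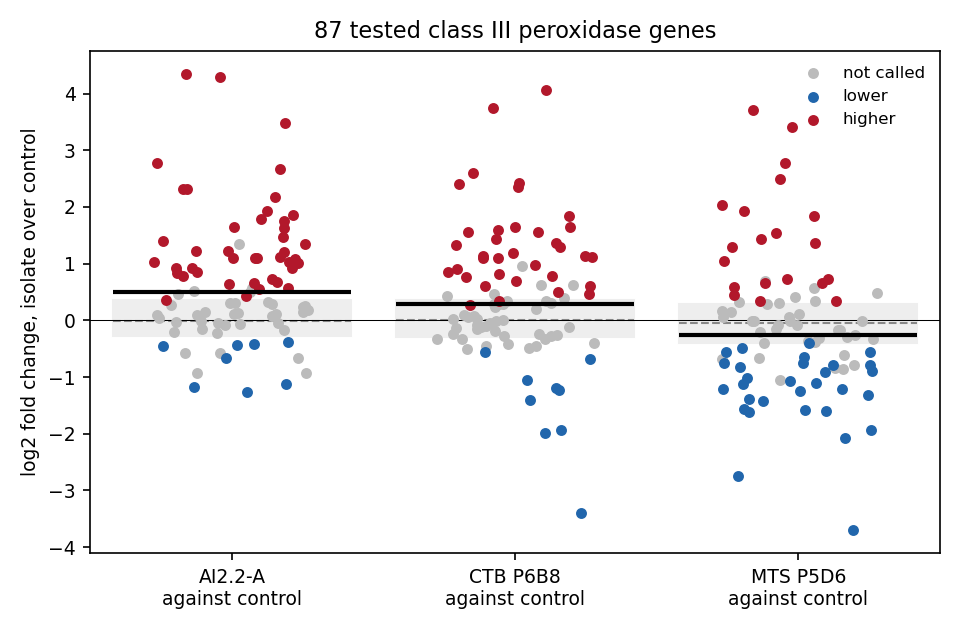
Log2 fold change of the 87 tested members over control (vertical axis) for each isolate (horizontal axis). Red points were called higher, blue points lower and grey points were not called; the black line is the members' median, and the grey band and dashed line are the quartiles and median of all genes tested. The members' median is 0.50 beside AI2.2-A, 0.30 beside CTB P6B8 and -0.26 beside MTS P5D6.

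The 5 members with the highest mean CPM, uncorrected for length, rose with all 3 isolates. A peroxidase 1-like gene (LOC117858930), first in mean CPM, was measured at 588, 651, 615 and 963 CPM beside AI2.2-A, 714, 1608 and 759 CPM beside CTB P6B8 and 1044, 684, 886 and 1183 CPM beside MTS P5D6, against 319, 350.0, 341 and 299 CPM in control shoots. Every isolate library lay above every control library, with 1 CTB P6B8 library well above the other two. The log2 fold changes over control were 1.11 ± 0.23 beside AI2.2-A (adjusted p = 0.00113), 1.65 ± 0.25 beside CTB P6B8 (adjusted p = 8.36e-05) and 1.54 ± 0.24 beside MTS P5D6 (adjusted p = 5.62e-05). A peroxidase 2-like gene (LOC117843537) stood at 1551, 918, 1107 and 943 CPM beside AI2.2-A, 606, 562 and 771 CPM beside CTB P6B8 and 609, 504, 411 and 449 CPM beside MTS P5D6, against 359, 349, 374 and 357 CPM in control shoots. All isolate libraries were again above the controls, and the AI2.2-A libraries were above those of the other isolates. Its log2 fold change was 1.65 ± 0.16 beside AI2.2-A (adjusted p = 1.29e-06), 0.85 ± 0.17 beside CTB P6B8 (adjusted p = 0.000735) and 0.46 ± 0.16 beside MTS P5D6 (adjusted p = 0.0221). The MTS P5D6 call was lost without MTS P5D6 replicate 1 (adjusted p = 0.0877) or control replicate 2 (adjusted p = 0.0503). A peroxidase 5-like gene (LOC117865568) was at 371, 309, 342 and 306 CPM beside AI2.2-A, 206, 185 and 241 CPM beside CTB P6B8 and 236, 205, 235 and 205 CPM beside MTS P5D6, against 160.3, 172, 186 and 178 CPM in control shoots. The AI2.2-A libraries were the highest and the controls the lowest, and only CTB P6B8 overlapped the controls. The gene rose by 0.93 ± 0.09 on the log2 scale beside AI2.2-A (adjusted p = 1.63e-06), by 0.28 ± 0.10 beside CTB P6B8 (adjusted p = 0.0321) and by 0.34 ± 0.09 beside MTS P5D6 (adjusted p = 0.00556). Its CTB P6B8 call was lost without CTB P6B8 replicate 1 or 3 or control replicate 1, 2 or 4, with adjusted p of 0.0505 to 0.106.

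Genes described as cationic peroxidase SPC4, a name taken from an enzyme of sorghum grain, filled 4 of the 8 first places in mean CPM, and all 6 were tested. With each isolate 3 of the 6 rose over control, and beside MTS P5D6 1 of the 6 also fell. The 1 with the most counts (LOC117847231) was at 375, 472, 423 and 586 CPM beside AI2.2-A, 698, 774 and 438 CPM beside CTB P6B8 and 1347, 717, 911 and 1021 CPM beside MTS P5D6, against 268, 322, 269 and 254 CPM in control shoots. Its group mean was highest beside MTS P5D6 and lowest in controls, and no isolate library was inside the control range. The log2 fold change was 0.74 ± 0.19 beside AI2.2-A (adjusted p = 0.00507), 1.19 ± 0.21 beside CTB P6B8 (adjusted p = 0.00025) and 1.84 ± 0.20 beside MTS P5D6 (adjusted p = 1.87e-06). Another SPC4-like gene (LOC117850981) was at 202, 163, 172 and 156 CPM beside AI2.2-A, 124, 129 and 97.9 CPM beside CTB P6B8 and 230.4, 135, 149 and 157 CPM beside MTS P5D6, against 67.3, 70.3, 55.6 and 55.7 CPM in control shoots. It was above the controls in all 11 isolate libraries, by 1.48 ± 0.15 beside AI2.2-A (adjusted p = 2.13e-06), 0.91 ± 0.16 beside CTB P6B8 (adjusted p = 0.000286) and 1.43 ± 0.15 beside MTS P5D6 (adjusted p = 1.65e-06) on the log2 scale. LOC117855007 was called higher beside CTB P6B8 (0.69 ± 0.20, adjusted p = 0.0115) and MTS P5D6 (0.67 ± 0.19, adjusted p = 0.00776) but not beside AI2.2-A (0.11 ± 0.19, adjusted p = 0.657). Its CTB P6B8 call was lost without CTB P6B8 replicate 1 (adjusted p = 0.0559), and its value beside AI2.2-A was -0.0065 without control replicate 1. LOC117849762 was not called with any isolate, at 0.15, -0.33 and 0.30 beside AI2.2-A, beside CTB P6B8 and then beside MTS P5D6. LOC117847312 went in opposite directions. It was at 189, 133, 148 and 108 CPM beside AI2.2-A, 75.8, 73.6 and 86.1 CPM beside CTB P6B8 and 56.5, 56.9, 35.1 and 31.4 CPM beside MTS P5D6, against 105, 92.4, 75.2 and 62.6 CPM in control shoots. It rose beside AI2.2-A (0.79 ± 0.20, adjusted p = 0.00452), fell beside MTS P5D6 (-0.89 ± 0.21, adjusted p = 0.00184) and was not called beside CTB P6B8 (-0.09 ± 0.22, adjusted p = 0.762). AI2.2-A libraries lay above all controls and MTS P5D6 libraries below them. The sixth gene (LOC117858226), named after its values were seen, was not called with any isolate, at -0.93, -0.12 and -1.05 in the same order.

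Beside AI2.2-A, the largest called increases, among members with a mean log2 CPM of at least 1 and no overlap with controls, were in genes that were low in controls. A peroxidase 2-like gene (LOC117850082) was at 3.99, 6.56, 5.72 and 4.7 CPM beside AI2.2-A, 3.76, 5.53 and 4.1 CPM beside CTB P6B8 and 3.51, 1.74, 5.16 and 3.45 CPM beside MTS P5D6, against 0.337, 0.326, 0.305 and 0.103 CPM in control shoots. Controls were near 0, with 17 counts over the 4 libraries, and no isolate library was within their range. It rose by 4.30 ± 0.38 on the log2 scale beside AI2.2-A (adjusted p = 5.94e-07), 4.06 ± 0.40 beside CTB P6B8 (adjusted p = 2.16e-06) and 3.70 ± 0.39 beside MTS P5D6 (adjusted p = 1.74e-06). A peroxidase 1-like gene (LOC117842508) was at 16.9, 5.28, 17.7 and 5.76 CPM beside AI2.2-A, 5.41, 4.89 and 8.23 CPM beside CTB P6B8 and 5.81, 4.29, 7.32 and 5.49 CPM beside MTS P5D6, against 0.337, 1.96, 0.687 and 0.930 CPM in control shoots. The AI2.2-A libraries split into a higher and a lower pair, all above the controls. The log2 fold changes were 3.48 ± 0.47 beside AI2.2-A (adjusted p = 2.81e-05), 2.61 ± 0.50 beside CTB P6B8 (adjusted p = 0.000624) and 2.49 ± 0.49 beside MTS P5D6 (adjusted p = 0.000504), and 4.08, 3.20 and 3.08 without control replicate 2, the highest control. A peroxidase P7-like gene (LOC117851253), a name from turnip, was at 17, 38.5, 28.9 and 30.1 CPM beside AI2.2-A, 24.3, 27.6 and 38.6 CPM beside CTB P6B8 and 17.7, 11.7, 15.4 and 14.1 CPM beside MTS P5D6, against 4.05, 6.3, 7.1 and 5.48 CPM in control shoots. Every isolate library was above every control, and it rose by 2.32 ± 0.24 beside AI2.2-A (adjusted p = 2.09e-06), 2.40 ± 0.25 beside CTB P6B8 (adjusted p = 3.35e-06) and 1.36 ± 0.24 beside MTS P5D6 (adjusted p = 0.000201). A peroxidase 47-like gene (LOC117860185), a name whose Arabidopsis gene is linked to lignin in vessels, was at 18.2, 8.31, 13.8 and 8.64 CPM beside AI2.2-A, 8.95, 14.7 and 5.72 CPM beside CTB P6B8 and 3.56, 3.31, 5.1 and 0.616 CPM beside MTS P5D6, against 2.16, 6.25, 2.21 and 2.07 CPM in control shoots. AI2.2-A libraries were above the controls by 1.93 ± 0.46 (adjusted p = 0.00287), or 2.51 without control replicate 2, which was far above the other controls. Beside CTB P6B8 it rose by 1.59 ± 0.49 (adjusted p = 0.0148, 0.0848 without CTB P6B8 replicate 2), with overlap, and beside MTS P5D6 it was not called (-0.01 ± 0.50, adjusted p = 0.983).

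Of the 6 genes described as peroxidase A2, a name from horseradish, 3 rose and none fell beside AI2.2-A, 3 rose and 1 fell beside CTB P6B8, and 3 rose and 2 fell beside MTS P5D6. LOC117841093 was at 50.8, 43.1, 48.2 and 43.3 CPM beside AI2.2-A, 45.2, 29.1 and 42.7 CPM beside CTB P6B8 and 9.53, 11, 15.6 and 9.49 CPM beside MTS P5D6, against 10.5, 4.24, 6.94 and 7.6 CPM in control shoots. The AI2.2-A and CTB P6B8 libraries were far above both MTS P5D6 and control libraries, and MTS P5D6 overlapped the controls. The log2 fold change over control was 2.67 ± 0.22 beside AI2.2-A (adjusted p = 2.78e-07), 2.43 ± 0.23 beside CTB P6B8 (adjusted p = 1.37e-06) and 0.66 ± 0.22 beside MTS P5D6 (adjusted p = 0.0216). The MTS P5D6 call was lost without MTS P5D6 replicate 3 (adjusted p = 0.0957) or control replicate 2 (adjusted p = 0.0733). LOC117841094 averaged 170.3 ± 23 CPM beside AI2.2-A (SD, n = 4), 120.1 ± 44.7 CPM beside CTB P6B8 (SD, n = 3) and 74 ± 23.4 CPM beside MTS P5D6 (SD, n = 4), against 49.2 ± 13.2 CPM in controls (SD, n = 4). It rose by 1.79 ± 0.24 beside AI2.2-A (adjusted p = 2.64e-05) and 1.29 ± 0.25 beside CTB P6B8 (adjusted p = 0.000713). Its rise beside MTS P5D6 (0.59 ± 0.24, adjusted p = 0.0482) was not called by DESeq2 (adjusted p = 0.0509) or limma-voom (adjusted p = 0.0582), nor without MTS P5D6 replicate 1 or 3 or control replicate 1 or 2 (adjusted p = 0.108 to 0.189). LOC117836271 rose by 2.32 ± 0.32 beside AI2.2-A (adjusted p = 3.19e-05), 1.84 ± 0.34 beside CTB P6B8 (adjusted p = 0.000413) and 1.29 ± 0.33 beside MTS P5D6 (adjusted p = 0.00384). LOC117840347 was lower beside CTB P6B8 (-1.05 ± 0.31, adjusted p = 0.011) and MTS P5D6 (-0.74 ± 0.28, adjusted p = 0.035) and was not called beside AI2.2-A (-0.57 ± 0.28, adjusted p = 0.102). Its MTS P5D6 call was lost by DESeq2 (adjusted p = 0.0613), by total counts alone (adjusted p = 0.0503) and without MTS P5D6 replicate 1, 2 or 4 or control replicate 1, 3 or 4 (adjusted p = 0.0559 to 0.102). Of the remaining A2-like genes, both named after their values were seen, LOC117858260 was called with no isolate, and LOC117837747 fell only beside MTS P5D6 among the comparisons with control (-0.74).

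Of 87 tested members, 8 fell beside AI2.2-A (9.2%) and 9 beside CTB P6B8 (10.3%), below the 24.3% and 22.7% of all genes. At 2-fold or more, 3.45% and 8.05% fell, against 2.47% and 2.3% of all genes. Peroxidase 1 (LOC117847563), named after its values were seen, fell beside CTB P6B8 (-1.19) and MTS P5D6 (-2.07). The genes that follow were picked by level and separation from controls. Larger falls beside CTB P6B8, in LOC117857130 (-1.93) and LOC117857058 (-3.40), are given later. A peroxidase 70-like gene (LOC117841568), a name from maize, was at 2.47, 2.62, 3.12 and 1.82 CPM beside AI2.2-A, 2.51, 2.13 and 3.05 CPM beside CTB P6B8 and 3.72, 4.18, 3.66 and 4.81 CPM beside MTS P5D6, against 5.73, 6.03, 6.71 and 5.74 CPM in control shoots. The controls were above every isolate library, and the gene fell beside AI2.2-A (-1.27 ± 0.17, adjusted p = 1.92e-05), CTB P6B8 (-1.22 ± 0.18, adjusted p = 6.82e-05) and MTS P5D6 (-0.56 ± 0.16, adjusted p = 0.00777). A P7-like gene (LOC117839379) averaged 19.9 ± 4.98 CPM beside AI2.2-A (SD, n = 4), 21.5 ± 5.41 CPM beside CTB P6B8 (SD, n = 3) and 13.7 ± 2.43 CPM beside MTS P5D6 (SD, n = 4), against 31.5 ± 2.11 CPM in controls (SD, n = 4). It fell with all 3, with log2 fold changes of -0.66 ± 0.17, -0.55 ± 0.19 and -1.20 ± 0.18 in that order (adjusted p = 0.00534, 0.0255 and 4.38e-05). Its CTB P6B8 call was lost by total counts alone (adjusted p = 0.0678) and without CTB P6B8 replicate 1 or 2 or control replicate 3 (adjusted p = 0.0598 to 0.133). A peroxidase 5-like gene (LOC117839839) had log2 fold changes of -0.46 ± 0.12 beside AI2.2-A (adjusted p = 0.00595, 0.0502 by total counts), -0.15 ± 0.13 beside CTB P6B8 (adjusted p = 0.382) and -1.10 ± 0.13 beside MTS P5D6 (adjusted p = 3.91e-06).

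MTS P5D6 was the isolate with more members lower (34.5%) than higher (23.0%). All genes tested also fell more often than they rose beside it (28.3% and 23.9%). At 2-fold or more, 18 members fell (20.7%, against 5.4% of all genes) and 12 rose (13.8%, against 8.42%). Of 6 tested root markers, 5 fell and 1 rose with MTS P5D6 against control. These 6 were low, with control means of 0.390 to 7.94 CPM. Of 26 green-tissue markers, 17 fell and 4 rose, where 28.3% of all genes tested fell and 23.9% rose. The part of either list in these values was not tested. A peroxidase 56-like gene (LOC117835886) was at 14.2, 14, 12.8 and 9.88 CPM beside AI2.2-A, 10.6, 9.56 and 11.6 CPM beside CTB P6B8 and 4.88, 7.39, 4.8 and 5.05 CPM beside MTS P5D6, against 17.2, 16.6, 17.3 and 17 CPM in control shoots. The controls lay within a narrow range above all 11 isolate libraries, and the MTS P5D6 libraries were the lowest. It fell beside AI2.2-A (-0.42 ± 0.13, adjusted p = 0.0173), CTB P6B8 (-0.68 ± 0.15, adjusted p = 0.00144) and MTS P5D6 (-1.62 ± 0.14, adjusted p = 3.3e-07). Its AI2.2-A call was lost by total counts (adjusted p = 0.106) and without AI2.2-A replicate 4 (adjusted p = 0.0544). A peroxidase 43-like gene (LOC117866394) was at 25.6, 26.7, 24.9 and 21 CPM beside AI2.2-A, 22.5, 34.8 and 30 CPM beside CTB P6B8 and 8.66, 7.5, 8.71 and 11.9 CPM beside MTS P5D6, against 26.1, 28.7, 30.2 and 24.5 CPM in control shoots. MTS P5D6 libraries stood alone below the rest, and the gene fell beside MTS P5D6 (-1.58 ± 0.15, adjusted p = 5.26e-07) and was not called beside AI2.2-A (-0.16 ± 0.14, adjusted p = 0.365) or CTB P6B8 (0.09 ± 0.15, adjusted p = 0.661). A peroxidase 1-like gene (LOC117842383) averaged 14.9 ± 3.63 CPM beside AI2.2-A (SD, n = 4), 11.8 ± 1.05 CPM beside CTB P6B8 (SD, n = 3) and 4.6 ± 0.700 CPM beside MTS P5D6 (SD, n = 4), against 14 ± 1.28 CPM in controls (SD, n = 4). It fell beside MTS P5D6 (-1.60 ± 0.16, adjusted p = 1.17e-06) and was not called beside AI2.2-A (0.10 ± 0.15, adjusted p = 0.612) or CTB P6B8 (-0.25 ± 0.16, adjusted p = 0.232). Other members rose beside MTS P5D6. A peroxidase 4-like gene (LOC117862486), a name whose Arabidopsis gene is linked to lignification, was at 4.63, 5.74, 3.17 and 6.48 CPM beside AI2.2-A, 5.68, 4.72 and 2.59 CPM beside CTB P6B8 and 11.3, 13.6, 11.8 and 9.25 CPM beside MTS P5D6, against 2.56, 3.04, 2.9 and 2.64 CPM in control shoots. MTS P5D6 libraries were above all others, and the gene rose beside MTS P5D6 (2.04 ± 0.24, adjusted p = 3.96e-06) and AI2.2-A (0.85 ± 0.24, adjusted p = 0.00906, 0.0544 by limma-voom) and was not called beside CTB P6B8 (0.62 ± 0.26, adjusted p = 0.0615). A peroxidase 1-like gene (LOC117855100) averaged 7.19 ± 0.818 CPM beside AI2.2-A (SD, n = 4), 9.71 ± 2.81 CPM beside CTB P6B8 (SD, n = 3) and 11.7 ± 0.665 CPM beside MTS P5D6 (SD, n = 4), against 3.07 ± 0.489 CPM in controls (SD, n = 4). It rose by 1.22 ± 0.17 (adjusted p = 3.81e-05), 1.65 ± 0.18 (adjusted p = 5.24e-06) and 1.93 ± 0.17 (adjusted p = 3.31e-07) with the isolates in that order.

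**Figure D3:**
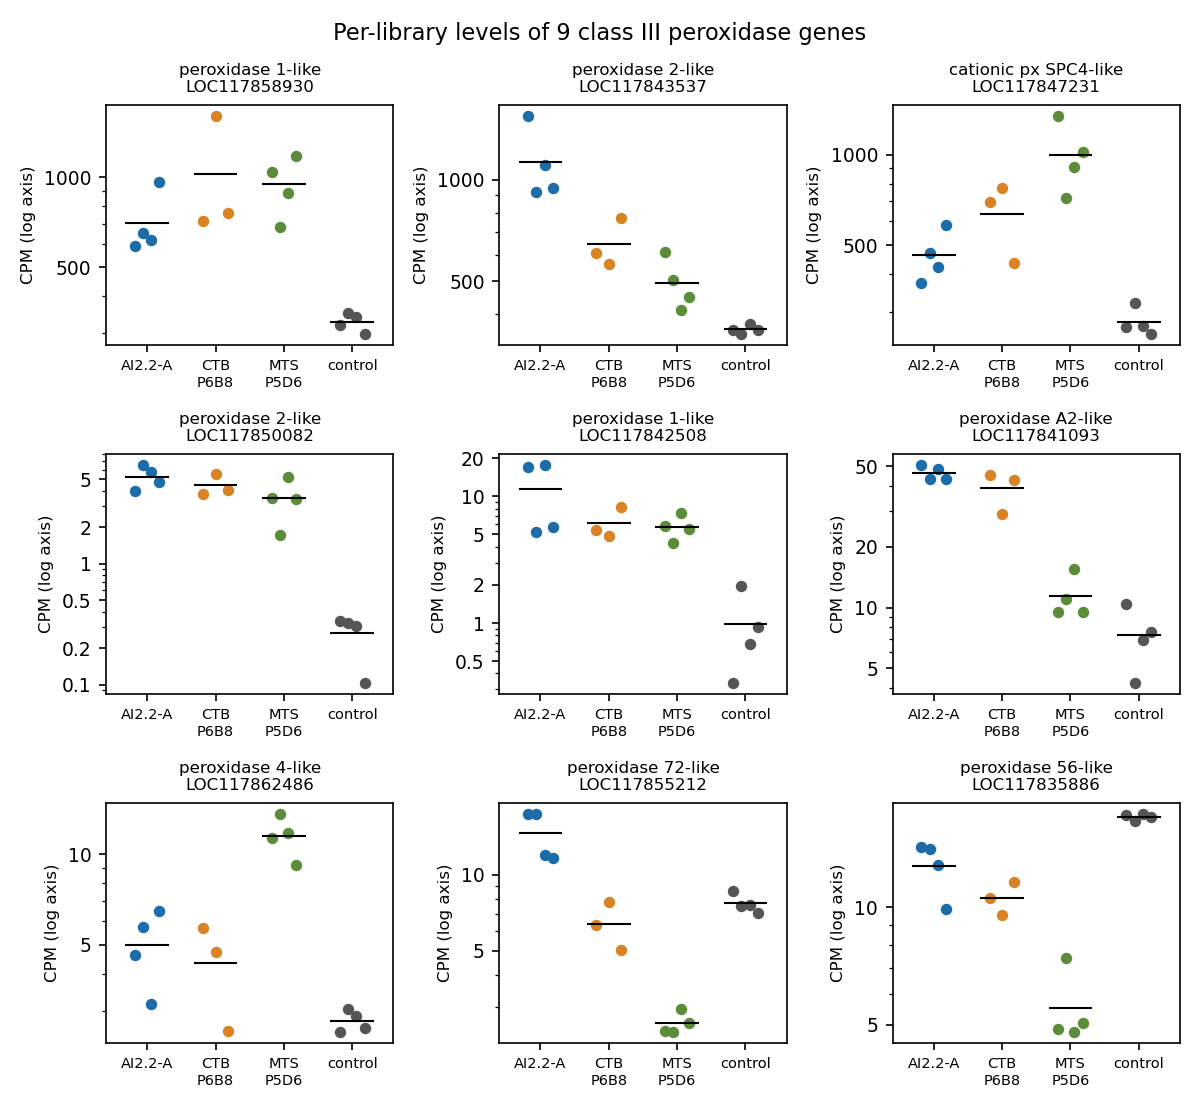
CPM of 9 members in each library (vertical axis, log scale, a different range in each panel) by treatment (horizontal axis). Points are libraries and lines are group means. The peroxidase 2-like gene LOC117850082 is 3.99 to 6.56 CPM beside AI2.2-A and 0.103 to 0.337 CPM in controls, and the peroxidase 72-like gene LOC117855212 is 2.39 to 2.94 CPM beside MTS P5D6 and 7.08 to 8.64 CPM in controls.

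Arabidopsis PRX72 is known for its part in lignin of stem fibres and vessels, and all 5 genes described as peroxidase 72 were tested. Beside MTS P5D6 all 5 fell (median log2 fold change -1.12, range -1.94 to -0.55), where 28.3% of all genes tested fell. Beside AI2.2-A 3 rose and 1 fell (median 0.92), and beside CTB P6B8 1 rose and 1 fell (median -0.24). These 5 calls beside MTS P5D6 were made in the same direction under relative log expression scaling and under total counts alone. LOC117855212 was at 17.4, 17.3, 11.9 and 11.7 CPM beside AI2.2-A, 6.31, 7.83 and 5.02 CPM beside CTB P6B8 and 2.41, 2.39, 2.94 and 2.59 CPM beside MTS P5D6, against 8.64, 7.5, 7.55 and 7.08 CPM in control shoots. AI2.2-A libraries were above the controls, MTS P5D6 libraries were below them, and CTB P6B8 overlapped them. Its log2 fold changes over control were 0.93 ± 0.16 beside AI2.2-A (adjusted p = 0.000204), -0.28 ± 0.18 beside CTB P6B8 (adjusted p = 0.217) and -1.57 ± 0.18 beside MTS P5D6 (adjusted p = 3.34e-06). The other 4, named after their values were seen, had log2 fold changes beside MTS P5D6 of -0.55 ± 0.16 (LOC117854816), -1.12 ± 0.20 (LOC117859327), -0.78 ± 0.28 (LOC117855242) and -1.94 ± 0.43 (LOC117857130). LOC117855212, LOC117855242 and LOC117854816 stand in a row in the genome, so their values may share reads. The LOC117855242 call was lost in a fit of these 2 groups alone (adjusted p = 0.0742) and without MTS P5D6 replicate 2 or control replicate 1 or 3 (adjusted p = 0.0564 to 0.0695). LOC117857130 was also the 1 that fell beside AI2.2-A (-1.18 ± 0.41, adjusted p = 0.0245) and CTB P6B8 (-1.93 ± 0.47, adjusted p = 0.00356). Its AI2.2-A call was lost without AI2.2-A replicate 1 or 2 or control replicate 2 (adjusted p = 0.0711 to 0.124).

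Other members carry the names of Arabidopsis genes linked to lignin formation, and this grouping was made after their values were seen. Beside MTS P5D6, peroxidase 25 (LOC117855623) fell (-2.75 ± 0.58, adjusted p = 0.000891), with 5 counts over the 4 MTS P5D6 libraries and 33 over the 4 controls. Another peroxidase 4-like gene (LOC117834052) also fell (-0.91 ± 0.30, adjusted p = 0.0168, 0.0507 without MTS P5D6 replicate 3). Peroxidase 17 (LOC117846611), the 47-like gene above and peroxidase 64 (LOC117841712) were not called beside MTS P5D6 (-0.31, -0.01 and -0.16). Peroxidase 64, whose Arabidopsis namesake acts in the lignin of the root Casparian strip, was at 9.1, 9.41, 9.52 and 8.49 CPM beside AI2.2-A, 14.2, 16 and 14.8 CPM beside CTB P6B8 and 12.1, 9.94, 10.2 and 10.4 CPM beside MTS P5D6, against 11.9, 11.1, 13.7 and 11 CPM in control shoots. It fell beside AI2.2-A (-0.38 ± 0.10, adjusted p = 0.00432) and rose beside CTB P6B8 (0.33 ± 0.10, adjusted p = 0.014, 0.0578 without CTB P6B8 replicate 2), and both groups lay outside the control range. A peroxidase 9-like gene (LOC117857058), whose Arabidopsis namesake acts in the anther tapetum, had 75 counts beside AI2.2-A, 10 beside CTB P6B8 and 9 beside MTS P5D6, against 113 in controls. It fell beside CTB P6B8 (-3.40 ± 0.81, adjusted p = 0.00293) and MTS P5D6 (-3.70 ± 0.78, adjusted p = 0.000916) and was not called beside AI2.2-A (-0.93 ± 0.57, adjusted p = 0.187).

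Most of the larger name groups held members that rose and members that fell, in groups too small to set closely against the shares of all genes given above. Of 11 tested genes described as peroxidase 2, 8 rose and none fell beside AI2.2-A (median log2 fold change 1.35), 6 rose and 1 fell beside CTB P6B8 (0.97), and 3 rose and 1 fell beside MTS P5D6 (0.11). Of 9 tested peroxidase 1 genes, 6 rose and none fell beside AI2.2-A (0.66), 4 rose and 1 fell beside CTB P6B8 (0.43), and 3 rose and 2 fell beside MTS P5D6 (0.29). Of 8 tested peroxidase 5 genes, 2 rose and 1 fell beside AI2.2-A (0.17), 1 rose and none fell beside CTB P6B8 (-0.06), and 2 rose and 3 fell beside MTS P5D6 (-0.44). Of 7 tested P7 genes, 2 rose and 1 fell beside AI2.2-A (0.30), 2 rose and 1 fell beside CTB P6B8 (0.24), and 2 rose and 4 fell beside MTS P5D6 (-0.82). All 4 genes described as peroxidase 51 were tested: 3 rose beside AI2.2-A (0.50), 2 rose beside CTB P6B8 (0.41), and beside MTS P5D6 none was called by edgeR or DESeq2 (-0.23), where 1 had an unadjusted p under 0.05, lower. Of 3 tested genes described as peroxidase 70, the other two (LOC117842493 and LOC117836541, named after their values were seen) rose beside AI2.2-A (1.03 and 0.56) and CTB P6B8 (0.79 and 0.61) and were not called beside MTS P5D6 (-0.01 and 0.05). The LOC117836541 call beside AI2.2-A was lost without AI2.2-A replicate 1 or 2 or control replicate 2, 3 or 4 (adjusted p = 0.0545 to 0.101). Its CTB P6B8 call was lost without CTB P6B8 replicate 2 or control replicate 2 or 4 (adjusted p = 0.0605 to 0.141). No called member of any name took the opposite sign under either other scaling.

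The remaining tested names held 1 or 2 tested members each, and these genes are given for completeness, named after their values were seen. A peroxidase 73-like gene (LOC117842036) rose with all 3 isolates, by 1.03 ± 0.18 beside AI2.2-A, 1.14 ± 0.19 beside CTB P6B8 and 0.74 ± 0.18 beside MTS P5D6 on the log2 scale. Peroxidase 21 (LOC117848587) rose beside AI2.2-A (1.22 ± 0.17) and CTB P6B8 (1.32 ± 0.18) and was not called beside MTS P5D6 (0.06 ± 0.18). The same calls held for a peroxidase 27-like gene (LOC117857239), at 1.07 ± 0.16, 0.98 ± 0.17 and -0.28 ± 0.17, and for a peroxidase 43-like gene (LOC117862734), at 1.76 ± 0.41, 1.56 ± 0.44 and 0.58 ± 0.47. A peroxidase N-like gene (LOC117836909), a name from horseradish, was called only beside AI2.2-A (1.85 ± 0.34) among the comparisons with control, and a peroxidase 31-like gene (LOC117862825) only beside CTB P6B8 (0.81 ± 0.26), which was lost without CTB P6B8 replicate 3 (adjusted p = 0.0623) or control replicate 4 (adjusted p = 0.0532). Genes under 5 names were called only beside MTS P5D6 in those comparisons, all lower: a 16-like gene (LOC117850896, -1.42 ± 0.23), a 3-like gene (LOC117851218, -1.24 ± 0.23), peroxidase 19 (LOC117854643, -0.65 ± 0.21), an 18-like gene (LOC117862729, -0.48 ± 0.13) and peroxidase 11 (LOC117852343, -0.41 ± 0.14). The peroxidase 11 call was lost by total counts alone (adjusted p = 0.0512), by limma-voom (adjusted p = 0.0527), with any gene of 1 count kept (adjusted p = 0.0591) and in a fit of these 2 groups alone (adjusted p = 0.0735). It was also lost without MTS P5D6 replicate 1, 2 or 4 or control replicate 1 (adjusted p = 0.0578 to 0.121). The peroxidase 19 call was lost without MTS P5D6 replicate 3 (adjusted p = 0.0551). A peroxidase 45-like gene (LOC117853182) fell beside AI2.2-A (-1.13 ± 0.34, adjusted p = 0.0124, 0.0545 without control replicate 2) and CTB P6B8 (-1.41 ± 0.38) and was not called beside MTS P5D6 (-0.38 ± 0.33). The 24-like gene LOC117849978 rose beside AI2.2-A (0.84 ± 0.22, adjusted p = 0.00562) and beside CTB P6B8 (0.61 ± 0.24, adjusted p = 0.0472) and fell beside MTS P5D6 (-1.02 ± 0.25, adjusted p = 0.00268). Its CTB P6B8 call was lost without CTB P6B8 replicate 2 or 3 or control replicate 1, 2 or 4 (adjusted p = 0.0526 to 0.144). Members described as peroxidase 12, 39 and the other N-like gene were not called with any isolate against control.

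**Figure D4:**
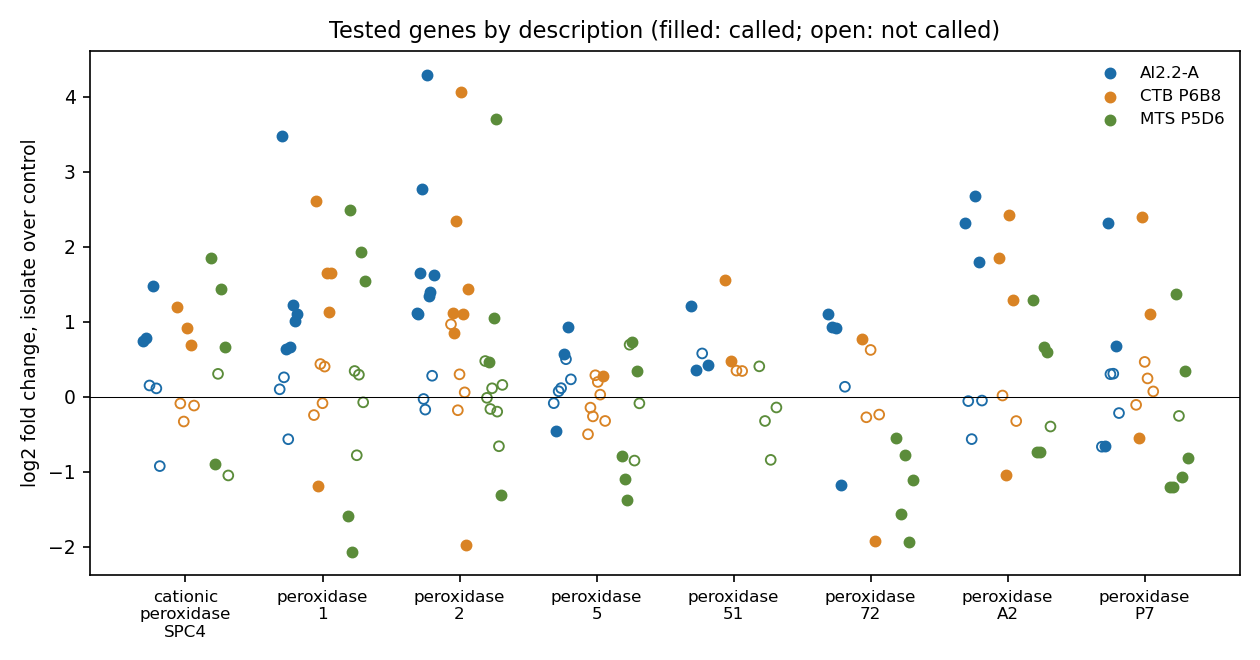
Log2 fold change over control (vertical axis) of the tested members under 8 names (horizontal axis), for each isolate by colour. Filled points were called and open points were not. All 5 peroxidase 72 genes are below 0 beside MTS P5D6, between -1.94 and -0.55, and 8 peroxidase 2 genes are called above 0 beside AI2.2-A.

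The isolates were also compared with each other. AI2.2-A against MTS P5D6 gave the most calls among members: 54 of 87 were higher (62.1%, against 23.8% of all genes) and 7 lower (8.05%, against 21.4%), with a median log2 fold change of 0.76. At 2-fold or more it gave 37 higher (42.5%, against 7.25% of all genes) and 3 lower (3.45%, against 3.14%). CTB P6B8 against MTS P5D6 gave 37 higher (42.5%, against 15.2% of all genes) and 7 lower (8.05%, against 11.1%), with a median of 0.65. At 2-fold or more it gave 22 higher (25.3%, against 4.56% of all genes) and 2 lower (2.3%, against 0.847%). AI2.2-A against CTB P6B8 gave 8 higher (9.2%, against 4.53% of all genes) and 2 lower (2.3%, against 5.86%), with a median of 0.24. At 2-fold or more it gave 4 higher (4.6%, against 0.857% of all genes) and none lower (against 1.08%). The count of 8 was 5 without AI2.2-A replicate 1 or CTB P6B8 replicate 1 and 3 without CTB P6B8 replicate 2, and the count of 2 was 6 without CTB P6B8 replicate 3. The 7 members lower for CTB P6B8 than for MTS P5D6 were 2 without CTB P6B8 replicate 3 and 3 without MTS P5D6 replicate 1. In the authors' deposited table the members split into 56 higher and 8 lower for AI2.2-A over MTS P5D6, 34 and 9 for CTB P6B8 over MTS P5D6, and 10 and 3 for AI2.2-A over CTB P6B8 after its sign was turned, since that table gives CTB P6B8 over AI2.2-A.

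Between AI2.2-A and CTB P6B8, the peroxidase 72-like gene LOC117855212 was higher beside AI2.2-A by 1.20 ± 0.17 on the log2 scale (adjusted p = 0.00115). The SPC4-like gene LOC117847312 (0.88 ± 0.22, adjusted p = 0.0204) and the peroxidase 2-like gene LOC117843537 (0.81 ± 0.17, adjusted p = 0.00968) were also higher beside AI2.2-A. The LOC117847312 call was lost without AI2.2-A replicate 1 or CTB P6B8 replicate 1 or 2 (adjusted p = 0.0601 to 0.0886), and the LOC117843537 call without CTB P6B8 replicate 2 (adjusted p = 0.0555) or in a fit of these 2 groups alone (adjusted p = 0.0522). A peroxidase 16-like gene (LOC117853029) was at 56.3, 55.6, 50.2 and 52.6 CPM beside AI2.2-A, 96.8, 116 and 96.4 CPM beside CTB P6B8 and 95.9, 72, 74.3 and 84.1 CPM beside MTS P5D6, against 54.8, 70.7, 88.2 and 76.5 CPM in control shoots. AI2.2-A libraries were below all CTB P6B8 libraries (-0.94 ± 0.13, adjusted p = 0.00092), and CTB P6B8 libraries were above all controls (0.50 ± 0.13, adjusted p = 0.00493). Against control the gene fell beside AI2.2-A (-0.43 ± 0.12, adjusted p = 0.00824), where 1 control overlapped the AI2.2-A libraries. The peroxidase 64 gene LOC117841712 was likewise lower beside AI2.2-A than beside CTB P6B8 (-0.72 ± 0.10, adjusted p = 0.00109). These 2 were the members called lower by edgeR in that comparison, and DESeq2 called 4.

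Marker genes also differed between these isolates. Of 6 tested root markers, 5 were higher and none lower beside AI2.2-A than beside MTS P5D6. Of the same 6, 3 were higher and none lower beside CTB P6B8 than beside MTS P5D6. Of 26 tested green-tissue markers, 15 were higher (57.7%, against 23.8% of all genes) and 5 lower (19.2%, against 21.4%) for AI2.2-A over MTS P5D6. For CTB P6B8 over MTS P5D6, 5 were higher (19.2%, against 15.2% of all genes) and 1 lower (3.85%, against 11.1%). The share higher in that comparison was near that of all genes. Their part in the peroxidase values was not tested. Against MTS P5D6, the 72-like gene LOC117855212 was higher beside AI2.2-A by 2.50 ± 0.17 on the log2 scale (adjusted p = 2.23e-07), the A2-like gene LOC117841093 by 2.02 ± 0.21 (adjusted p = 3.38e-06) and the 47-like gene LOC117860185 by 1.94 ± 0.46 (adjusted p = 0.00281). Lower beside AI2.2-A than beside MTS P5D6 were a peroxidase 2-like gene (LOC117849993, -1.22 ± 0.28, adjusted p = 0.00216), the 4-like gene LOC117862486 (-1.20 ± 0.22, adjusted p = 0.000414) and the SPC4-like gene LOC117847231 (-1.11 ± 0.19, adjusted p = 0.000283). Between CTB P6B8 and MTS P5D6, LOC117841093 (1.77 ± 0.22, adjusted p = 6.52e-05), the 43-like gene LOC117866394 (1.66 ± 0.15, adjusted p = 1.16e-05) and a peroxidase 24-like gene (LOC117849978, 1.63 ± 0.25, adjusted p = 0.000367) were higher beside CTB P6B8. The 24-like gene averaged 4.94 ± 0.797 CPM beside CTB P6B8 (SD, n = 3) and 1.59 ± 0.616 CPM beside MTS P5D6 (SD, n = 4). The 4-like gene LOC117862486 was lower beside CTB P6B8 (-1.42 ± 0.24, adjusted p = 0.000798). So were the 70-like gene LOC117841568 (-0.66 ± 0.18, adjusted p = 0.0143, 0.059 without CTB P6B8 replicate 2) and a peroxidase 5-like gene (LOC117854752, -0.53 ± 0.17, adjusted p = 0.0331). The LOC117854752 call was lost without each CTB P6B8 replicate in turn and without MTS P5D6 replicate 1 or 3 (adjusted p = 0.0666 to 0.0897), and by total counts alone (adjusted p = 0.071).

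Many members lie beside each other in the genome. By the gene order of the RefSeq annotation of S. viridis, in which 116 of the 117 members were found, 68 members fell into 23 runs of neighbouring peroxidase genes with at most 1 other gene between them. The longest run, 5 peroxidase 2-like genes, had 233 counts in all over the 15 libraries, and none of them passed the count filter. Fold changes differed within runs. The widest range was in a run of 4 that held the peroxidase 2-like gene LOC117850082 (4.30, 4.06 and 3.70 beside AI2.2-A, next CTB P6B8 and next MTS P5D6), a peroxidase 15-like gene (LOC117847928, 2.17, 1.37 and 2.77), another peroxidase 2-like gene (LOC117849993, -0.17, 0.30 and 1.05) and 1 that was not tested. In that run the log2 fold changes beside AI2.2-A spanned 4.47. The CTB P6B8 call of LOC117847928 was lost without CTB P6B8 replicate 2 or control replicate 2 or 4 (adjusted p = 0.0503 to 0.111). The A2-like genes LOC117841094, LOC117841093 and LOC117836271, called higher beside AI2.2-A and CTB P6B8, stood in a row with LOC117840347, called lower beside CTB P6B8 and MTS P5D6. The SPC4-like genes LOC117849762, LOC117847312, LOC117850981 and LOC117847231 also stood in a row. So did the 72-like genes LOC117855212, LOC117855242 and LOC117854816 with the 9-like gene LOC117857058, all called lower beside MTS P5D6. Beside AI2.2-A, 28 of the 47 tested members in runs rose (59.6%) and 4 fell (8.51%). Outside runs 14 of 40 rose (35.0%) and 4 fell (10.0%), where 23.4% of all genes tested rose and 24.3% fell. Beside CTB P6B8, 21 in runs rose (44.7%) and 5 fell (10.6%). Outside runs 14 rose (35.0%) and 4 fell (10.0%), where 22.6% of all genes rose and 22.7% fell. Beside MTS P5D6, 15 in runs rose (31.9%) and 13 fell (27.7%). Outside runs 5 rose (12.5%) and 17 fell (42.5%), where 23.9% of all genes rose and 28.3% fell. The difference between members in and outside runs was not tested. Neighbours of this kind can be near-identical, and no source used here says how the counting treated reads that fit several genes, so values within a run may share reads.

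**Figure D5:**
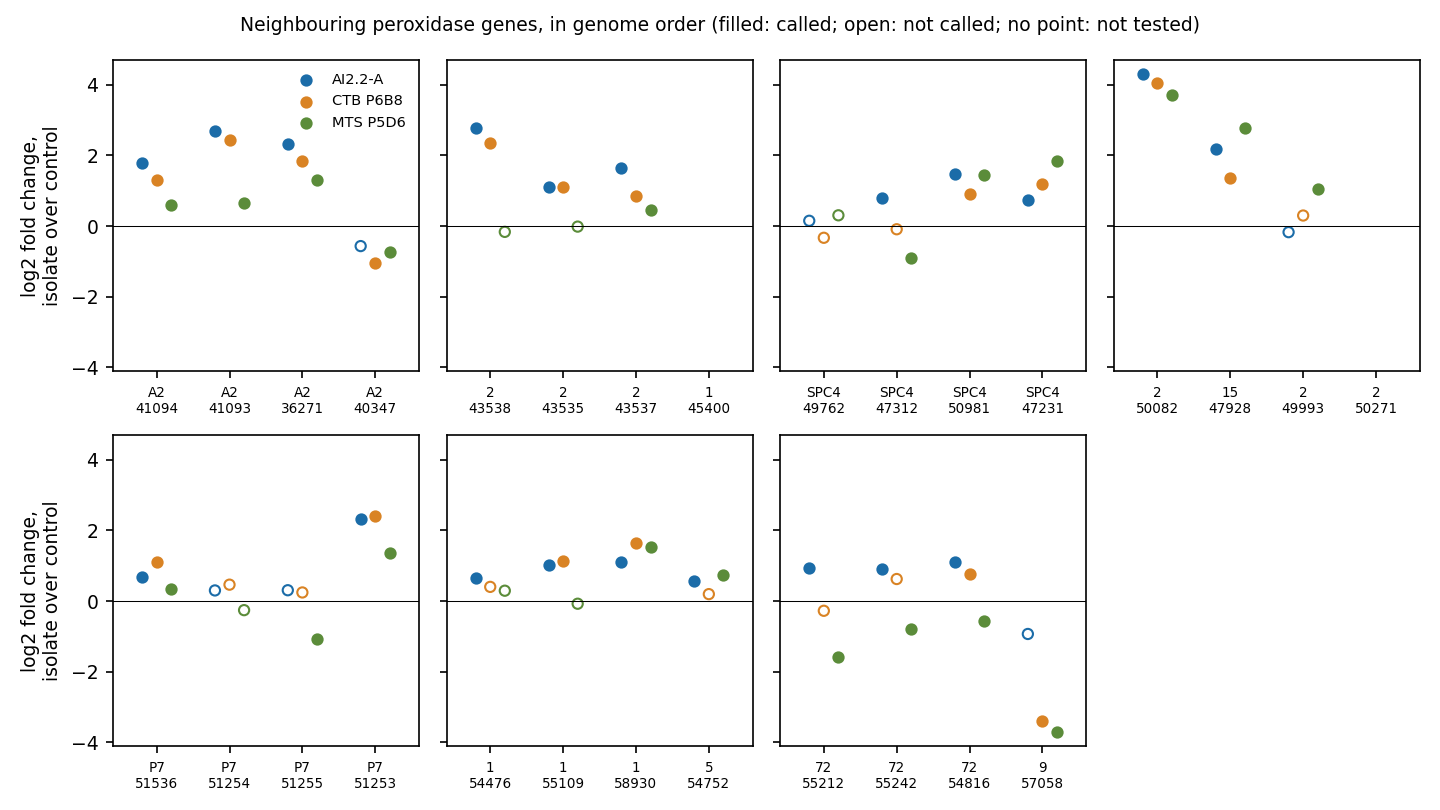
Log2 fold change over control (vertical axis) of the genes of 7 runs of 4 neighbours, in genome order (horizontal axis), labelled with the name after "peroxidase" and the last 5 digits of the identifier, which begins with LOC1178. Colours are isolates, filled points were called, open points were not, and a gene with no point was not tested. In the run that starts with LOC117850082, values beside AI2.2-A run from -0.17 to 4.30.

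The 30 members that were not tested had 7 to 104 counts each over the 15 libraries (median 29.5), while the tested members had 107 or more. They were 10 peroxidase 2, 4 peroxidase 1, 3 peroxidase 5, all 3 peroxidase 57, 2 P7 and 2 cationic peroxidase 1 genes, and 1 each of cationic peroxidase 2 and peroxidases 7, 31, 40, 44 and 70. No member had 0 counts in all libraries, but genes absent from the deposited comparison used to choose members could not be among them. Between 109 and 114 members had at least 1 count beside AI2.2-A, 106 to 108 beside CTB P6B8 and 100 to 104 beside MTS P5D6, against 104 to 112 in controls. Among tested members with few control counts, a cationic peroxidase 1-like gene (LOC117865201, a name from peanut, chosen after its values were seen) had 94 counts beside AI2.2-A, 45 beside CTB P6B8 and 40 beside MTS P5D6, against 3 in controls. The gene was called higher beside AI2.2-A (log2 fold change 4.35), CTB P6B8 (3.74) and MTS P5D6 (3.42). The ratio of its scaled counts to control was 23.7 beside AI2.2-A (95% interval 7.86 to 116.9), 15.0 beside CTB P6B8 (4.82 to 75.5) and 12.1 beside MTS P5D6 (3.86 to 61.2). These intervals cover counting error only.

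Genes that supply or share the chemistry of class III peroxidases were counted from lists set by description. The shares of all genes tested that rose and fell were 23.4% and 24.3% beside AI2.2-A, 22.6% and 22.7% beside CTB P6B8, and 23.9% and 28.3% beside MTS P5D6. Of 80 tested genes of monolignol synthesis, which make the lignin precursors, 40 rose (50.0%) and 11 fell (13.8%) beside AI2.2-A, 38 rose (47.5%) and 8 fell (10.0%) beside CTB P6B8, and 24 rose (30.0%) and 16 fell (20.0%) beside MTS P5D6. Of 29 tested laccases, copper enzymes that also oxidize monolignols, 12 rose (41.4%) and 6 fell (20.7%) beside AI2.2-A, 7 rose and 7 fell (24.1% each) beside CTB P6B8, and 2 rose (6.9%) and 13 fell (44.8%) beside MTS P5D6. The median log2 fold change of the laccases was 0.46 beside AI2.2-A, 0.15 beside CTB P6B8 and -1.04 beside MTS P5D6. A laccase-12-like gene (LOC117856072) fell by 3.93 ± 0.22 on the log2 scale beside MTS P5D6 (adjusted p = 7.78e-09). The other lists held 13 tested genes or fewer, so their counts cannot be read closely against those shares. Of 13 tested dirigent proteins, which guide phenolic coupling, 6 rose and 2 fell beside AI2.2-A, 5 rose and 1 fell beside CTB P6B8, and 1 rose and 5 fell beside MTS P5D6. Of 9 respiratory burst oxidases, which make superoxide outside the cell, 2 rose and 3 fell beside AI2.2-A, none rose and 5 fell beside CTB P6B8, and 1 rose and 8 fell beside MTS P5D6. Of 7 ascorbate peroxidases, which remove hydrogen peroxide inside cells, 5 rose and 1 fell beside AI2.2-A, 3 rose and 1 fell beside CTB P6B8, and 2 rose and 2 fell beside MTS P5D6. Of 6 peroxiredoxins, 5 rose and 1 fell beside AI2.2-A, 3 rose and 1 fell beside CTB P6B8, and 2 rose and 1 fell beside MTS P5D6. Of 3 catalases, 1 rose and 1 fell with each isolate. Of 7 superoxide dismutases, 2 rose and 3 fell beside AI2.2-A, 1 rose and 3 fell beside CTB P6B8, and 1 rose and 2 fell beside MTS P5D6. Of 7 glutathione peroxidases, 3 rose and 3 fell beside AI2.2-A, and 4 rose and 2 fell beside CTB P6B8 and beside MTS P5D6.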

How the data were processed

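The authors deposited raw counts per gene for 15 libraries, whole numbers without normalization, and tables of their own pairwise comparisons. Tools named in the submitters' processing notes are DESeq2 (1.6.3), featureCounts, FastQC, HISAT2 and Trimmomatic, whose roles are not stated. A stranded total RNA kit is named in the labels' protocols. Neither the build and annotation nor the use of strand in counting is known from the sources used here, so genes that overlap or lie antisense may share counts. Per gene, the authors' deposited tables hold descriptions, a mean normalized signal, log2 fold changes, standard errors, a test score and an adjusted p-value. Only the descriptions, log2 fold changes and p-values were used.

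From the counts, edgeR 4.0.16 in R 4.3.3 fitted all 15 libraries in 1 model of 4 groups (TMM scaling, filterByExpr, quasi-likelihood F test, two-sided, no fold minimum), with Benjamini-Hochberg adjustment over 20310 genes. The same fit gave all 6 comparisons, without a replicate block. CPM divides counts by the scaled library total, with no prior count, and a standard error is the log2 fold change divided by the root of F. Libraries of 1 group were compared in 21 pairs, and their chi-square divided by its degrees of freedom was 2.69 to 21.4, so no library repeated another of its group. Libraries of different groups were not compared in this way. The procedure was also run on simulated counts. Far fewer genes changed in them than were called here, so they do not test the scaling under broad changes. Gene order came from a RefSeq table of the assembly Setaria_viridis_v4.0, which the files do not name as theirs, and no coordinates were taken from it. No sequence of the members was at hand, and none is shown.

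The members and lists were chosen with earlier results of these data known. Genes are named by a rule: the 8 members with the highest mean CPM, the 6 higher and 4 lower called members per isolate with the largest fold change, and 3 of each per isolate pair, with a mean log2 CPM of at least 1 and no overlap between groups. The run of neighbours with the widest range is also named, with at most the gene of smallest p from each other list. A further part, members with 0 counts in controls and at least 10 in an isolate library, took none. Others named are said to be chosen after their values were seen. Tried as alternatives were scaling by relative log expression or total counts alone, other count filters, DESeq2 1.42.0, limma-voom (limma 3.58.1), fits of 2 groups, an adjusted p under 0.01, replicate blocks, and each library left out. Figures were drawn with matplotlib 3.10.9.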

Additional observations from a re-analysis of the deposited data

Results flagged for a closer look

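In 93 groups of 4 libraries looked at among the 30 named genes and the members' sum, 4 had 1 library far from the others by Dixon's criterion for the gap over the range, where chance gives about 1 in 20. AI2.2-A replicate 4 had 962.5 CPM of the peroxidase 1-like gene LOC117858930, against 588 to 651 CPM in the other AI2.2-A libraries. MTS P5D6 replicate 2 had 7.39 CPM of the peroxidase 56-like gene LOC117835886, against 4.80 to 5.05 CPM in the other MTS P5D6 libraries. Control replicate 4 had 0.103 CPM of the peroxidase 2-like gene LOC117850082, against 0.305 to 0.337 CPM in the other controls. Control replicate 2 had 6.25 CPM of the peroxidase 47-like gene LOC117860185, against 2.07 to 2.21 CPM in the other controls. The 4 libraries are different ones.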

How the results depend on the processing

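Counts of called members kept within 1.5 times of the reported ones under relative log expression scaling, total counts alone, both other count filters, limma-voom and fits of the compared groups alone. At an adjusted p under 0.01, 5 in place of 8 members were lower with AI2.2-A and 5 in place of 9 with CTB P6B8, each against control, 3 in place of 8 were higher with AI2.2-A than CTB P6B8, and 2 in place of 7 were lower with CTB P6B8 than MTS P5D6. DESeq2 called 4 in place of 2 lower with AI2.2-A than CTB P6B8. By total counts alone, the median over all genes was 0.126 (log2) with AI2.2-A and 0.103 with CTB P6B8 over control, and 0.118 for AI2.2-A over MTS P5D6. With 1 library left out, higher and lower calls ran from 37 to 43 and 6 to 9 with AI2.2-A, 29 to 35 and 8 to 9 with CTB P6B8, and 16 to 21 and 26 to 31 with MTS P5D6, each against control. They ran from 3 to 11 and 2 to 6 for AI2.2-A against CTB P6B8, 46 to 56 and 6 to 9 for AI2.2-A against MTS P5D6, and 30 to 37 and 2 to 7 for CTB P6B8 against MTS P5D6. Of 69 values of named genes, 56 kept their direction and call under every alternative run. Over 1213 value and setting pairs, 44 lost the call and 1 turned: LOC117855007 with AI2.2-A against control, not called at 0.11, was -0.0065 without control replicate 1 and up to 0.19 with another library left out. The causes were not tested.

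Replicate numbers in the labels did not pair the libraries: same-numbered libraries correlated at -0.153 to 0.142 after removing group means, over 0.1 in 1 of 21 pairs. With a replicate block by title number, 40 members were higher and 8 lower with AI2.2-A against control. With a block by description number, 26 in place of 37 members were higher and 4 in place of 7 lower with CTB P6B8 than MTS P5D6. For AI2.2-A over MTS P5D6, 45 in place of 54 were higher with that block. LOC117854752 was among those not called between CTB P6B8 and MTS P5D6 with it (-0.61, adjusted p = 0.0863). Among other printed calls, that block left uncalled LOC117840347 (adjusted p = 0.165) and LOC117852343 (adjusted p = 0.0527) with MTS P5D6 over control. Both blocks left uncalled LOC117836541 (adjusted p = 0.0529 by description and 0.0505 by title number) and LOC117849978 (0.0953 and 0.0975) with CTB P6B8 over control, and the title block LOC117836541 with AI2.2-A (0.0507).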
